A study of Penicillium oxalicum with 9 samples.

Results

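The genes described here are 49 of the 9834 genes measured in mycelium of Penicillium oxalicum, and their transcripts were lower in both of 2 transcription factor mutants than in the control strain Ku70. They were chosen on FPKM, a fragment number corrected for how long the gene is and how deep the library. The lowest of the 3 Ku70 libraries had to reach 5 FPKM and at least 2 times the highest of the 6 mutant libraries, and 3 times the highest MuPOX01907 value had to exceed the lowest value among the other 6 libraries. The last condition removed 6 genes that were far lower in MuPOX01907 than anywhere else, and POX09352 was left out by name. Of the 7048 genes with at least 5 FPKM in every Ku70 library, 0.695% met the whole rule. Every comparison of these genes with Ku70 was used to choose them, so their levels against Ku70 are given as a description, with no test.

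Penicillium oxalicum is a filamentous fungus that secretes enzymes which break down starch, cellulose and xylan. In such fungi the genes of these enzymes, of sugar uptake and of many other functions are switched by transcription factors that respond to the carbon source, so that the loss of 1 regulator can lower genes in more than 1 pathway. Ku70 is a protein of the end joining pathway of DNA repair, and strains without it are commonly used because introduced DNA then integrates more often at the intended site. The files give gene IDs and no gene names, and 0 of the 9834 IDs matched the RefSeq table of assembly ASM172317v3. No name, role, position or sequence is therefore given for any ID, and they are ordered by their level and by how the mutants differ.

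The study asks what regulators of amylase genes do. Its 3 groups of 3 libraries, marked F, S and T, were strain Ku70 and the mutants MuPOX01907 and MuPOX08340, named for the mutated genes, all sampled at 24 h. Titles give 1% starch medium for both mutants and 1% Avicel, a microcrystalline cellulose, for Ku70, whereas the growth protocol of all 9 libraries names spores of the Ku70 mutant and Avicel. As far as the titles hold, strain and stated medium cannot be told apart in any value against Ku70. The labels do not say whether a mutant strain was 1 clone, whether both mutants also lack Ku70, or whether libraries came from separate cultures, so the spread behind each p-value may be technical. In RNA of whole mycelium, fewer hyphae that express a gene and less transcript per hypha cannot be told apart.

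Expected counts, the authors' estimated reads per gene, totalled 14412296 to 14802260 per library. Library correlations within a group ranged from 0.909 to 0.995 (Pearson, log2(FPKM + 1) across genes, which are not independent replicates), with the low end between Ku70 F and Ku70 T. Ku70 F correlated at 0.918 with Ku70 S, against 0.985 between Ku70 S and T. Ku70 S and T correlated at 0.943 to 0.967 with the MuPOX08340 libraries. They were thus nearer to that mutant than to Ku70 F. POX01907 summed to 5 reads in MuPOX01907, against 4613 in Ku70 and 5207 in MuPOX08340. Between the groups the bulk of genes also shifted on the FPKM scale. Across the 7048 genes with at least 5 FPKM in every Ku70 library, the median log2 ratio to Ku70 was -0.32 in MuPOX01907 and 0.03 in MuPOX08340, and scaling by TMM factors, which align the bulk of genes between libraries, brought both to 0.01.

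In Ku70 the mean FPKM of the 49 genes ran from 9.2 to 6329, with a median of 69.0. It lay from 100 to under 1000 FPKM for 15 genes, from 10 to under 100 for 31, above for 2 and below for 1. A median of 13.1% of the Ku70 level was left in MuPOX01907, with a range of 1.03% to 34.8%, and a median of 17.9% in MuPOX08340, with a range of 0% to 40.8%. By the ratio of means, 42 genes were at least 4-fold below Ku70 in MuPOX01907, 36 in MuPOX08340 and 35 in both, and 9 were at least 10-fold below in both. The 36 and the 35 include the mutated gene POX08340, which was at 0 in its own mutant. After TMM scaling the genes at least 4-fold below numbered 36 in MuPOX01907 and 38 in MuPOX08340. As background, 508 of the 7048 genes (7.21%) had every MuPOX01907 library at no more than 1/2 of the lowest Ku70 value, and 99 (1.4%) had every MuPOX08340 library there. Both comparisons share the Ku70 libraries and were used by the rule, so nothing is read from these shares. They are for the limit of the rule, and no share of the 7048 genes at 4-fold or 10-fold was worked out.

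**Figure D1:**
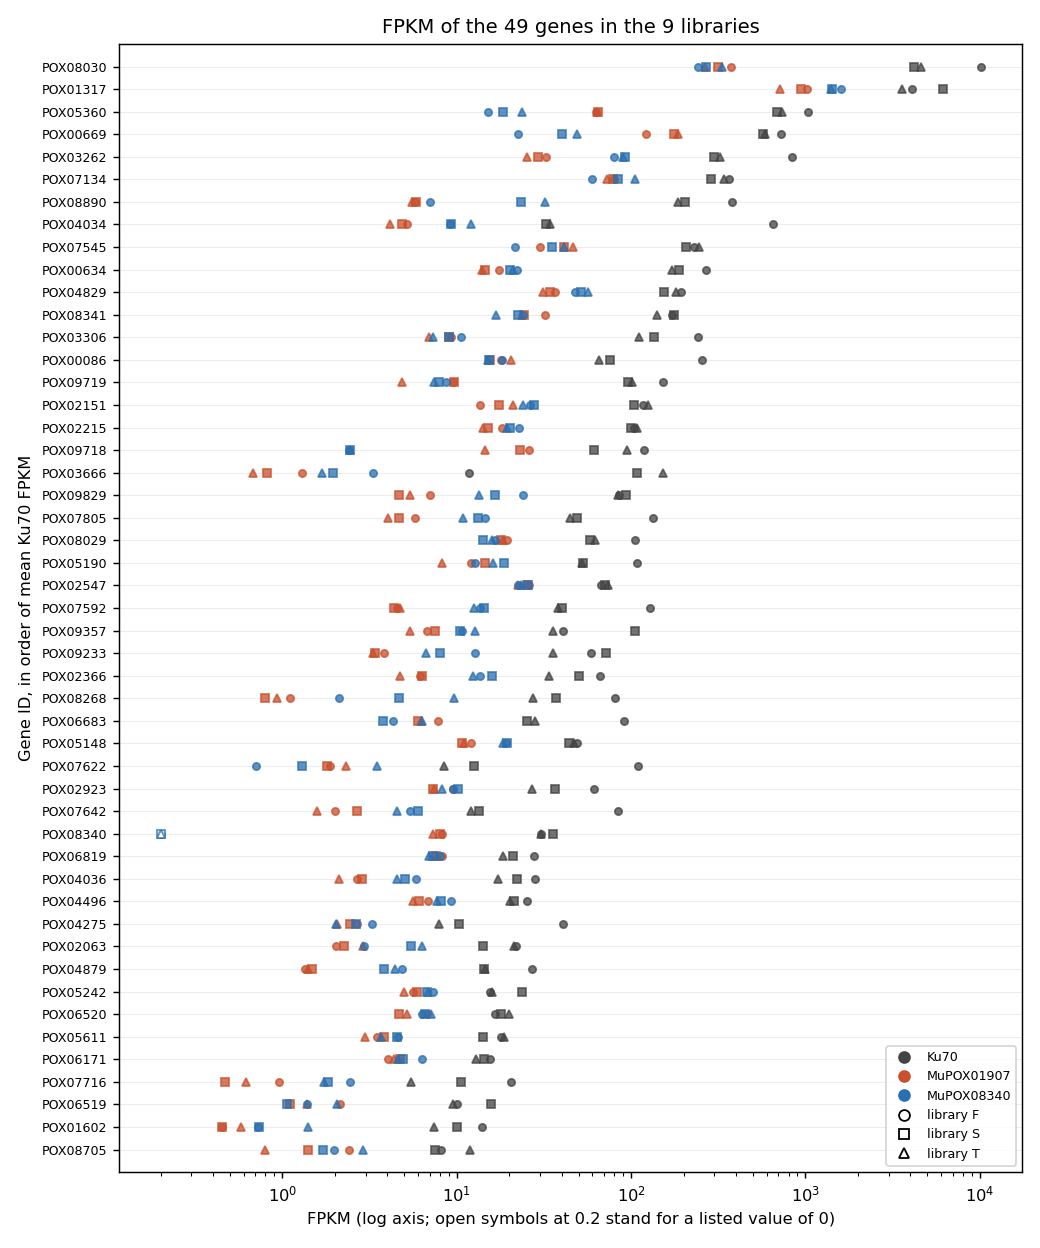
FPKM on a log axis (x) of each of the 49 genes (y, in order of mean Ku70 FPKM), with 1 symbol per library, coloured by strain and shaped by the letters F, S and T; open symbols stand for a listed value of 0. For every gene the 3 Ku70 symbols lie right of all 6 mutant symbols, as the rule requires, and the Ku70 means span 9.2 to 6329 FPKM.

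Together the 49 genes took 2.99%, 2.38% and 1.98% of the expected counts in Ku70 F, S and T. They took 0.341%, 0.334% and 0.289% in MuPOX01907 F, S and T, and 0.399%, 0.384% and 0.393% in MuPOX08340. A few genes made up much of that share: POX08030 and POX01317 together held more than 1/2 of it in the Ku70 mean, since the other 47 genes took 1.13% ± 0.285 (SD, n = 3) of the counts there. These 47 took 0.139% ± 0.00617 in MuPOX01907 and 0.111% ± 0.0103 in MuPOX08340. By counts, POX05360 exceeded POX08030 in Ku70 S and T, at 55783 and 59161 against 49343 and 54026. In MuPOX01907 F, S and T, POX05360 had 5034, 5170 and 5172 counts and POX00669 had 4027, 5852 and 6225. In MuPOX08340 they had 1216, 1462 and 1905, and 755, 1325 and 1632. The order of the mutants in the share of the 47 therefore rests on these 2 genes and does not describe the rest.

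The most abundant gene was POX08030, at 10214, 4191 and 4584 FPKM in Ku70 F, S and T. It measured 372, 314 and 267 FPKM in MuPOX01907 F, S and T, and 242, 269 and 334 FPKM in MuPOX08340. Ku70 F stood 2.23 times above the higher of the other Ku70 libraries, and the mutants overlapped each other in FPKM. In the test between the mutants described further on, POX08030 was higher in MuPOX01907 by less than 2-fold (log2 0.53, SE 0.176, edgeR adjusted p = 0.0385). That result held under 7 of 15 other settings of the test. The ratio of means was 19.9 against MuPOX01907 and 22.5 against MuPOX08340. POX08030 also had the widest gap of all, its lowest Ku70 value being 11.3 times its highest mutant value.

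POX01317, second in abundance, measured 4088, 6166 and 3596 FPKM in Ku70 F, S and T. In MuPOX01907 F, S and T it measured 1015, 941 and 711 FPKM, and in MuPOX08340 it measured 1592, 1420 and 1399. It kept far more of its level than POX08030, 19.3% in MuPOX01907 and 31.8% in MuPOX08340, and was the most abundant of the 49 by mean FPKM in both mutants. The mutants did not overlap in FPKM, with MuPOX01907 below, but the difference between them did not pass the test described further on (log2 -0.37, SE 0.145, edgeR adjusted p = 0.0677). With same-lettered libraries treated as pairs it passed at less than 2-fold (log2 -0.38, SE 0.116, edgeR adjusted p = 0.0228). That pairing was taken from these same data and not from the labels, so the paired result adds no support.

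POX05360 measured 1034, 689.8 and 731 FPKM in Ku70 F, S and T, 62.9, 64.3 and 63.6 in MuPOX01907, and 15.1, 18.4 and 23.8 in MuPOX08340. The 3 strains did not overlap, and the libraries of MuPOX01907 differed by little. POX00669 was at 727, 568 and 589.8 FPKM in Ku70, at 121, 176 and 185 in MuPOX01907, and at 22.6, 40.1 and 49.2 in MuPOX08340. Here too the strains formed 3 separate levels in the order Ku70, MuPOX01907, MuPOX08340.

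POX03262 had the reverse order of the mutants, at 834, 297 and 325 FPKM in Ku70 F, S and T, 32.6, 29.3 and 25.4 in MuPOX01907, and 79.6, 91.9 and 89.8 in MuPOX08340. POX07134 measured 364, 286 and 340 FPKM in Ku70, 79.3, 78.6 and 72.7 in MuPOX01907, and 59.3, 84.0 and 105 in MuPOX08340, so that the mutants overlapped. POX08890 was at 379, 205 and 187 FPKM in Ku70, at 5.78, 5.84 and 5.51 in MuPOX01907, and at 7.06, 23.3 and 32.3 in MuPOX08340. The MuPOX08340 libraries of POX08890 were far apart, F lying close to the MuPOX01907 level and S and T well above it.

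POX04034 shows how unequal the control libraries could be, at 649 FPKM in Ku70 F against 32.5 in S and 34.1 in T. It measured 5.17, 4.87 and 4.15 FPKM in MuPOX01907 F, S and T, and 9.17, 9.28 and 12.1 in MuPOX08340. The ratio of means to MuPOX01907, 50.4, therefore rests largely on Ku70 F, and the lowest Ku70 value was 2.69 times the highest mutant value.

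POX07545 measured 229, 206 and 245 FPKM in Ku70 F, S and T, 30.0, 41.3 and 46.3 in MuPOX01907, and 21.6, 35.0 and 41.4 in MuPOX08340. POX00634 measured 269, 189 and 171 FPKM in Ku70, 17.5, 14.6 and 14.0 in MuPOX01907, and 22.1, 20.2 and 21.0 in MuPOX08340. For POX07545 the mutants overlapped in FPKM. Its difference between them missed the adjusted p without pairs (log2 0.61, SE 0.266, edgeR adjusted p = 0.0911) and passed it with same-lettered libraries as pairs (log2 0.65, SE 0.107, edgeR adjusted p = 0.00138). Here too the pairing came from these data and not from the labels. For POX00634 MuPOX01907 lay below MuPOX08340 in FPKM in every library. On TMM-scaled counts that difference did not pass (log2 -0.10, SE 0.126, edgeR adjusted p = 0.547).

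Besides POX08030 and POX05360, the gaps between the lowest Ku70 and the highest mutant value were widest for POX03306, POX09719 and POX00634, at 10.5, 9.94 and 7.76 times, and 10.7 times for POX05360. POX03306 measured 243, 135 and 111 FPKM in Ku70 F, S and T, 9.32, 9.05 and 6.97 in MuPOX01907, and 10.5, 9.02 and 7.30 in MuPOX08340. POX09719 measured 153, 95.7 and 102 FPKM in Ku70, 9.50, 9.63 and 4.84 in MuPOX01907, and 8.72, 7.95 and 7.39 in MuPOX08340. In both of these genes the mutants lay at nearly the same level in FPKM as deposited. POX03306 had 5.19% and 5.49% of the Ku70 mean left, and POX09719 had 6.84% and 6.87%. On TMM-scaled counts both leaned higher in MuPOX01907 without passing. The log2 fold change was 0.28 for POX03306 (SE 0.172, edgeR adjusted p = 0.216) and 0.35 for POX09719 (SE 0.271, edgeR adjusted p = 0.312).

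**Figure D2:**
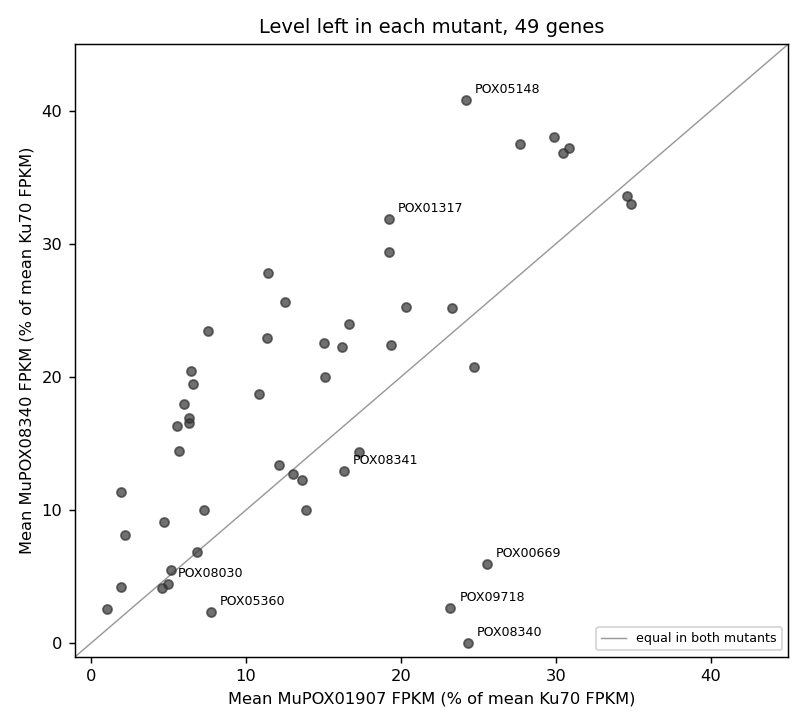
Mean FPKM left in MuPOX01907 (x) and in MuPOX08340 (y), each as a percentage of the Ku70 mean, with 1 point per gene and a line where both are equal. Most points lie above the line, 35 of 49 having the lower mean in MuPOX01907. FPKM as deposited was shifted for the bulk of genes too. The median log2 ratio to Ku70 over genes with at least 5 FPKM in every Ku70 library was -0.32 in MuPOX01907 and 0.03 in MuPOX08340. On TMM-scaled counts 26 of the 49 had the lower level in MuPOX01907 and 23 the higher. POX08340, POX09718, POX00669 and POX05360 lie far below the line, with 0%, 2.65%, 5.94% and 2.33% left in MuPOX08340.

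The transcript of the regulator gene POX08340 was itself among the 49. It measured 30.6, 35.7 and 30.6 FPKM in Ku70 F, S and T, 8.26, 8.01 and 7.28 in MuPOX01907, and 0 in each MuPOX08340 library. The 0 values are those of the mutated gene in its own mutant, where 0 reads were counted against 2759 in Ku70, a level at least 907-fold lower with a floor of 3 reads over the group. What the gene shares with the other 48 is therefore its level in MuPOX01907, 4.11-fold below Ku70 with no overlap. The other regulator gene, POX01907, met no such rule, at 18.8 ± 3.52 FPKM in Ku70 and 21.5 ± 2.37 in MuPOX08340 (SD, n = 3).

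The mutants were next compared with each other, since their titles state the same medium. The test was edgeR's quasi-likelihood test on the rounded expected counts of the 6 mutant libraries with TMM scaling, across 8478 genes. A gene was called at a Benjamini-Hochberg adjusted p under 0.05 and a difference of at least 2-fold. All 49 genes were tested. The rule bounds how far MuPOX01907 may lie below MuPOX08340 and holds both mutants under the same limit relative to Ku70, so counts over the 49 in either direction are a description only.

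Of the 49 genes, 4 were called higher in MuPOX01907 than in MuPOX08340, POX08340, POX09718, POX00669 and POX05360, against 11.8% of all genes tested. The share among the 49 was 8.16%, and 3 of 48 without the mutated gene. As the rule holds every mutant library under the same limit relative to Ku70, it shapes this share too, and nothing is read from it. The same 4 were called under each of the other settings tried for the test. Their own differences were large.

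POX09718 measured 118, 61.1 and 95.3 FPKM in Ku70 F, S and T, 26.1, 23.2 and 14.5 in MuPOX01907, and 2.41, 2.44 and 2.43 in MuPOX08340. It formed 3 separate levels and was higher in MuPOX01907 by a log2 fold change of 3.48 (SE 0.252, edgeR adjusted p = 3.18e-05). The corresponding values were 2.46 for POX00669 (SE 0.312, adjusted p = 0.000482, edgeR) and 2.09 for POX05360 (SE 0.183, adjusted p = 7.53e-05, edgeR). POX08340 was at least 221-fold higher in MuPOX01907, where 666 reads were counted. On TMM-scaled FPKM the rule no longer held for POX09718, whose lowest Ku70 value was 2.34 times its highest mutant value as deposited.

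In the other direction 9 of the 49 genes were called lower in MuPOX01907 than in MuPOX08340, 18.4% of them against 10.8% of all genes tested. In order of size these were POX08268, POX08890, POX09829, POX04879, POX03262, POX07592, POX07716, POX07805 and POX09233, with log2 fold changes from -2.20 to -1.01. The number rests on the libraries and on the scale used, being 5 without MuPOX01907 T and 4 with limma on TMM-scaled FPKM. POX08268, POX09829 and POX03262 were called under each of the 15 other settings, POX04879 and POX07592 under 14 of them, POX07805 under 11, POX09233 under 10, and POX08890 and POX07716 under 9.

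POX08268 measured 80.4, 37.1 and 27.4 FPKM in Ku70 F, S and T, 1.11, 0.79 and 0.93 in MuPOX01907, and 2.12, 4.69 and 9.70 in MuPOX08340 (log2 -2.20 between the mutants, SE 0.537, edgeR adjusted p = 0.0112). The MuPOX08340 libraries of this gene were spread widely, as were those of POX08890 (log2 -1.52, SE 0.498, adjusted p = 0.0357). In both genes F was the lowest and T the highest of the MuPOX08340 libraries. That order was not particular to them. Others of the 49, such as POX05360 and POX00669, had it too, and some, such as POX03306, had the reverse.

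POX09829 measured 85.4, 93.9 and 84.0 FPKM in Ku70, 7.0, 4.65 and 5.36 in MuPOX01907, and 23.9, 16.6 and 13.4 in MuPOX08340 (log2 -1.30 between the mutants, SE 0.262, edgeR adjusted p = 0.00472). Its Ku70 libraries were close together, and the 3 strains did not overlap. POX04879 measured 27.0, 14.3 and 14.5 FPKM in Ku70, 1.34, 1.47 and 1.41 in MuPOX01907, and 4.84, 3.82 and 4.43 in MuPOX08340 (log2 -1.27, SE 0.162, edgeR adjusted p = 0.000494). For POX03262, whose values stand above, the log2 fold change was -1.23 (SE 0.129, edgeR adjusted p = 0.000185).

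A further 13 genes passed the adjusted p between the mutants at less than 2-fold, 7 higher in MuPOX01907 and 6 lower, against 14% and 14.5% of all genes tested, and 23 did not pass. In all, 26 of the 49 (53.1%) passed the adjusted p, against 51.1% of all genes tested. The median log2 fold change between the mutants was -0.08 for the 49 and -0.03 for all 8478 genes. On FPKM as deposited both medians lay lower, at -0.38 and -0.34 with limma on log2(FPKM + 1). That shift touches each FPKM value printed here: MuPOX01907 lay below MuPOX08340 with no overlap for 25 of the 49 genes, against 50.3% of all genes tested, and above it for 5, against 16.9%. For POX05242 and POX02215, for example, the FPKM did not overlap but the log2 fold changes on counts were 0.01 and -0.04, and their signs turned under 8 and 2 of the 15 other settings.

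**Figure D3:**
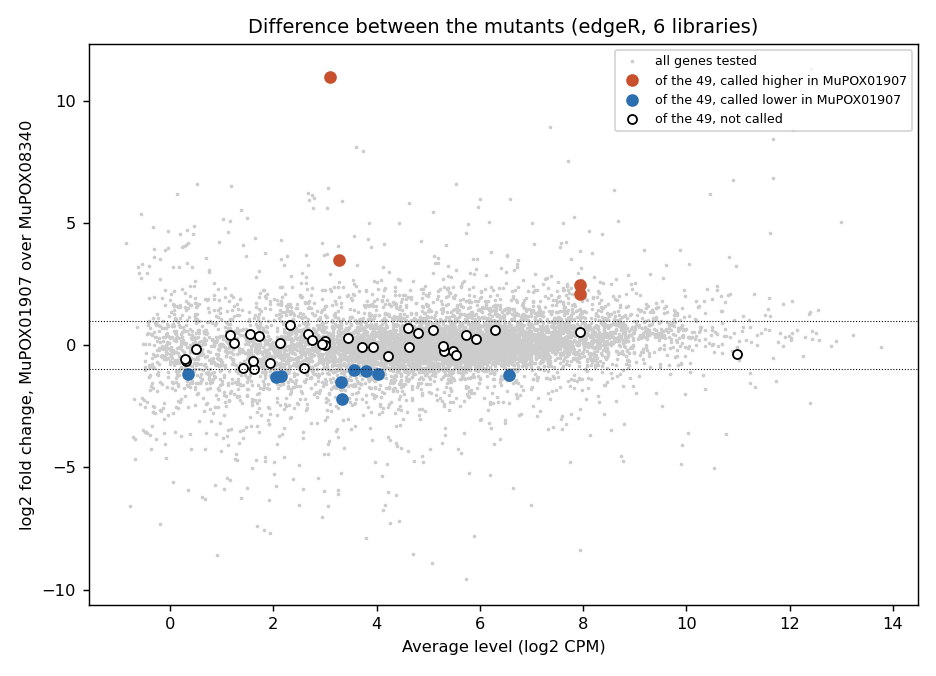
Log2 fold change of MuPOX01907 over MuPOX08340 (y) against the average level in log2 CPM (x), from edgeR on 6 libraries; grey points are all 8478 genes tested, filled circles the 49 genes where called and open circles those not called, and dotted lines mark a 2-fold difference. The 4 genes called higher lie at 2.09 and above, the 9 called lower between -2.20 and -1.01, and most of the 49 lie between the dotted lines.

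The control libraries differed among themselves for many of these genes. Ku70 F held the highest Ku70 value for 33 of the 49 genes (67.3%), whereas it did so for 36.0% of the 7048 genes with at least 5 FPKM in every Ku70 library. It exceeded both of the other controls at least 2-fold for 12 of the 49 (24.5%), against 3.36% of the 7048, and at least 2-fold below both for 1, against 6.06%. As the rule asks for a high lowest value in Ku70 but sets no upper limit, these shares are a description of the Ku70 libraries alone. The part of Ku70 F in the choice of genes was not tested. Without Ku70 F the rule gave 72 genes, and without Ku70 T, most often the lowest of the Ku70 libraries for these genes, it gave 123. Leaving out a Ku70 library can only raise or keep the lowest Ku70 value, which at most loosens the 2-fold limit, so these counts say nothing of how stable the 49 are.

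After POX04034, the genes farthest above in Ku70 F were POX07622 and POX07642. POX07622 measured 110.04 FPKM in Ku70 F against 12.5 in S and 8.41 in T, with 1.87, 1.81 and 2.31 in MuPOX01907 and 0.71, 1.30 and 3.49 in MuPOX08340. POX07642 measured 84.5 FPKM in Ku70 F against 13.5 in S and 12.1 in T, with 2.01, 2.67 and 1.57 in MuPOX01907 and 5.41, 5.98 and 4.53 in MuPOX08340. The lowest Ku70 value, that of T in both genes, was 2.41 times the highest mutant value for POX07622 and 2.03 times for POX07642.

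POX03666 went the other way. It measured 11.8 FPKM in Ku70 F against 108 in S and 153 in T, with 1.30, 0.82 and 0.68 in MuPOX01907 and 3.31, 1.96 and 1.69 in MuPOX08340. It had the largest ratio of means against MuPOX01907 among the 49, 97.3, although in Ku70 F it lay only 3.57 times above its highest mutant value. At the other end, the 3 Ku70 libraries of 16 of the 49 genes (32.7%) stayed within 1.5 times of each other, against 53.7% of the 7048. POX02547 was one of these, at 67.6, 71.1 and 73.7 FPKM in Ku70 against 22.3 to 25.9 FPKM over the 6 mutant libraries.

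**Figure D4:**
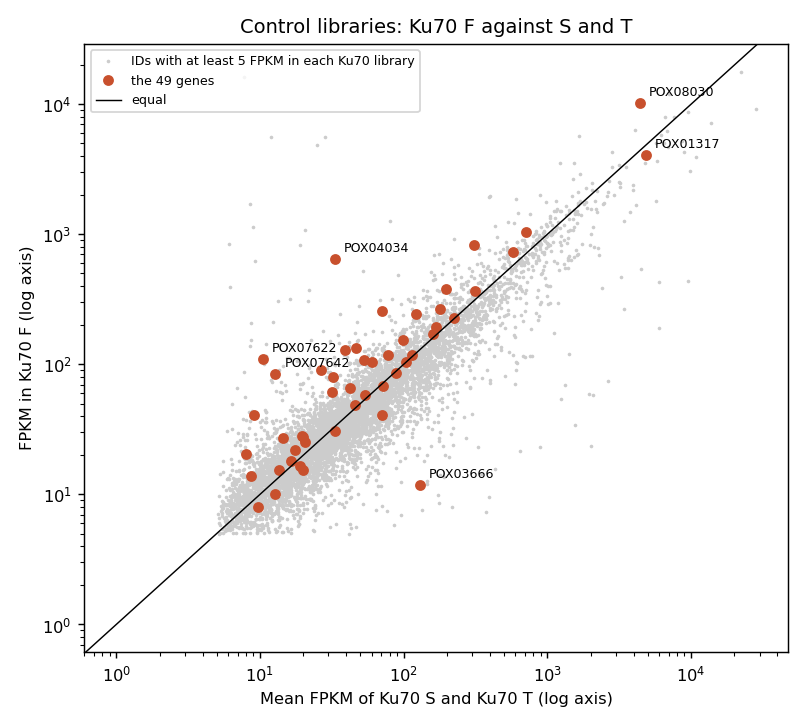
FPKM in Ku70 F (y) against the mean FPKM of Ku70 S and Ku70 T (x), both on log axes, for the 49 genes (large points) and all genes with at least 5 FPKM in every Ku70 library (grey), with a line where both are equal. Most of the 49 lie on or above the line, POX04034 farthest above at 649 FPKM in Ku70 F, and POX03666 lies far below at 11.8 FPKM.

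By ID number, 8 of the 49 genes stood next to another of them. They formed 4 pairs, and there were 0 runs of 3 or more. The pairs are described after their values were seen, and whether IDs with consecutive numbers lie side by side in the genome is not known here. Of the 66 IDs numbered next to the 49 genes, not among them and with at least 5 FPKM in every Ku70 library, 15 (22.7%) had every mutant library below every Ku70 library, against 802 of all 7048 such IDs (11.4%). This is a description, since the genes were chosen on the same libraries. POX08029, numbered before POX08030 and far less abundant than it, measured 105, 58.3 and 62.2 FPKM in Ku70, 19.3, 18.0 and 18.4 in MuPOX01907, and 16.6, 14.2 and 16.0 in MuPOX08340. Ku70 F was the highest control library in both genes. Both were higher in MuPOX01907 than in MuPOX08340 by less than 2-fold. The log2 fold change was 0.61 for POX08029 (SE 0.112, edgeR adjusted p = 0.0031) and 0.53 for POX08030 (SE 0.176, edgeR adjusted p = 0.0385). This held under 11 of 15 other settings for POX08029 and under 7 for POX08030.

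POX09718 and POX09719 were at like levels in Ku70 and apart in both mutants, as their values above show. Only POX09718 was called between the mutants, whereas the log2 fold change of POX09719 was 0.35 (SE 0.271, edgeR adjusted p = 0.312), and the difference between the genes was not tested. POX09717, numbered before them, measured 281, 227 and 361 FPKM in Ku70, 121, 97.5 and 73.2 in MuPOX01907, and 23.1, 38.6 and 28.1 in MuPOX08340. It followed the same order of the 3 strains as POX09718 and missed the rule only because its highest mutant value was too near the lowest Ku70 value, at a ratio of 1.87.

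POX06519 and POX06520 were among the less abundant genes. POX06519 measured 10.1, 15.8 and 9.56 FPKM in Ku70, 2.15, 1.10 and 1.38 in MuPOX01907, and 1.39, 1.06 and 2.05 in MuPOX08340. POX06520 measured 16.6, 17.8 and 20.1 FPKM in Ku70, 6.76, 4.67 and 5.17 in MuPOX01907, and 6.33, 6.60 and 7.14 in MuPOX08340. The mutants overlapped in both genes. POX06520 did not meet the rule on TMM-scaled FPKM.

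The fourth pair was that of the mutated gene POX08340 and the ID after it. POX08341 measured 172, 177 and 142 FPKM in Ku70 F, S and T, 32.2, 24.4 and 23.6 in MuPOX01907, and 24.1, 22.5 and 16.8 in MuPOX08340. As the rule requires, it was low in MuPOX01907 as well, where POX08340 itself was at 24.3% of its Ku70 mean. The ID before, POX08339, behaved differently and is none of the 49, at 11.7, 73.9 and 65.6 FPKM in Ku70, 17.8, 18.8 and 19.0 in MuPOX01907, and 285, 237 and 215 in MuPOX08340. In MuPOX08340 the ID before POX08340 therefore lay above every Ku70 library and the ID after it below. Whether the change made in the genome at POX08340 bears on the IDs beside it was not tested.

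**Figure D5:**
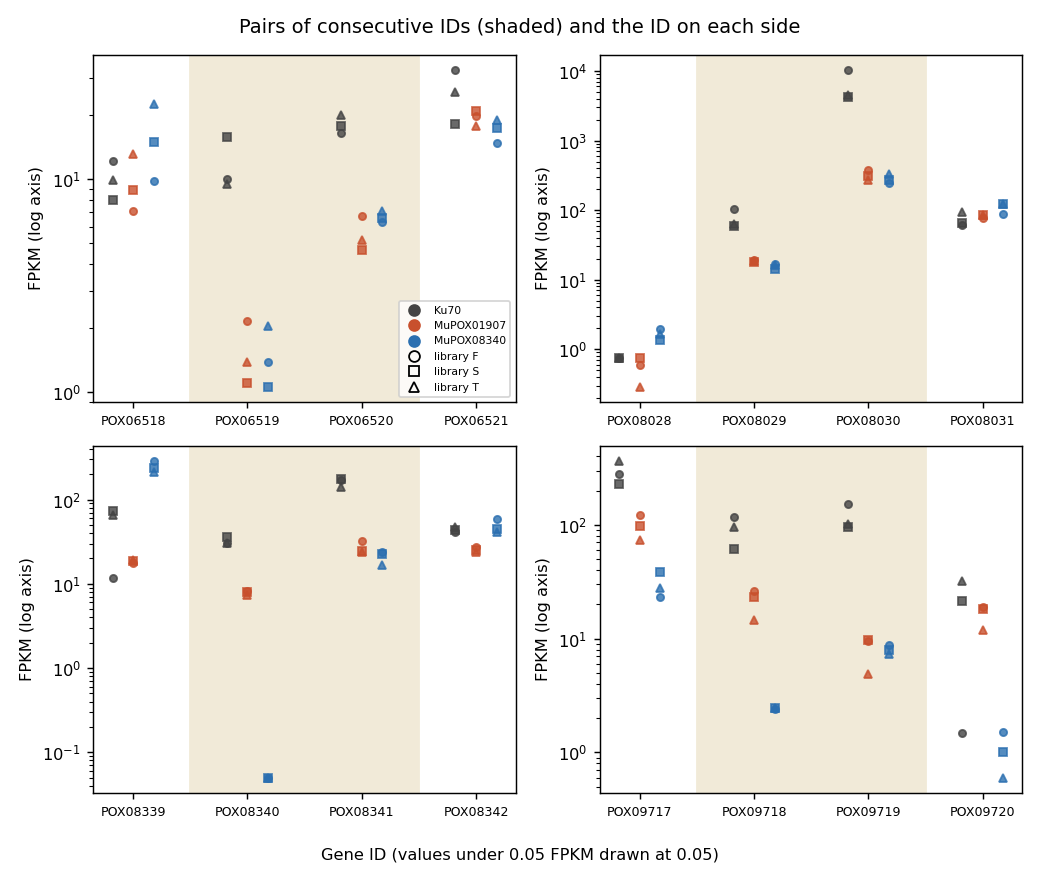
FPKM on a log axis (y) of the 4 pairs of consecutive IDs among the 49 (shaded) and of the ID on each side (x), with 1 symbol per library, coloured by strain and shaped by library letter; values under 0.05 FPKM are drawn at 0.05. In the shaded columns every Ku70 symbol lies above every mutant symbol, and POX08339 lies highest in MuPOX08340, at 215 to 285 FPKM.

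At the limits of the rule the choice rested on small steps. The genes just inside the 2-fold limit were POX07642, POX06171 and POX05242, with the lowest Ku70 value at 2.03, 2.03 and 2.11 times the highest mutant value, and POX04375, POX01601 and POX08891 just missed it, at 1.98, 1.95 and 1.95 times. Nearest to the Ku70 minimum were POX07716, POX01602 and POX08705, with lowest Ku70 values of 5.47, 7.41 and 7.54 FPKM, against 4.74, 4.67 and 4.51 FPKM for POX09311, POX07621 and POX06751 outside it. For the last condition, the highest MuPOX01907 value was 0.38, 0.38 and 0.41 times the lowest of the other strains for POX07592, POX04879 and POX03262, and 0.29, 0.22 and 0.20 times for POX01679, POX09819 and POX06008, which were left out. POX09352, left out by name, measured 34.9, 46.2 and 23.3 FPKM in Ku70 F, S and T, 7.21, 6.81 and 3.98 in MuPOX01907, and 4.08, 3.95 and 4.26 in MuPOX08340, and would otherwise have met the rule.

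Counting error matters for those of these genes with the fewest counts. POX07716 had 12, 6 and 8 expected counts in MuPOX01907 F, S and T, and POX01602 had 10, 10 and 13. POX02063, at a mean of 19.1 FPKM in Ku70, had 9, 10 and 13 there, and POX08705 had 24, 14 and 8. Expected counts were whole numbers in all 9 libraries for 43 of the 49 genes, within a tolerance of 1e-06, and held a fraction in at least 1 library for the other 6. How the authors counted reads shared by genes, and whether strand was used, is not stated in what was used here, so values of overlapping or near-identical genes carry an uncertainty beyond the errors printed.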

How the data were processed

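RNA of Penicillium oxalicum mycelium was sequenced on an Illumina HiSeq instrument, per the labels' protocols. Each deposited file lists 9834 gene IDs with an expected count, the authors' estimated reads per gene, and an FPKM, scaled by the authors to gene length and library size, per the file headers. The submitters' processing notes name the tools RSEM 1.2.12, Bowtie2 2.1.0, BWA 0.7.10-r789 and DESeq2. The genome build, annotation, strand setting and each tool's role are not given in the sources used.

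The rule was applied to FPKM as deposited. The genes, the lists and the tests were chosen with earlier results of these data known. MuPOX01907 and MuPOX08340 were compared with edgeR 4.0.16 (R 4.3.3) on expected counts rounded to whole numbers, after its default filter on low counts, which left 8478 genes. Standard errors are the fold change divided by the root of the F statistic. Ku70 was kept out of that fit because Ku70 F stands apart from the other Ku70 libraries. DESeq2 1.42.0 and limma 3.58.1 on log2(FPKM + 1) served as alternatives. Named genes were those highest in Ku70 (10), with the widest gap (5), called between the mutants (up to 5 each way), next to a limit (3 each side) and in runs of IDs, plus the IDs that the labels or the rule name; others were singled out after their values were seen. Same-lettered libraries of both mutants deviated together, with correlations across genes of 0.594 for F, 0.132 for S and 0.465 for T, each over the 0.1 used as the minimum for treating letters as pairs. The pairing comes from the data and not from the labels. For S it is weak, since MuPOX01907 S correlated more with MuPOX08340 T (0.235), and MuPOX01907 T with MuPOX08340 S reached 0.131. Every 2 libraries differed by more than sampling noise (chi-square divided by its degrees of freedom at least 17.5).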

Additional observations from a re-analysis of the deposited data

How the results depend on the processing

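The number of genes that meet the rule moved with its own limits, from 49 to 22 where the Ku70 minimum had to be 3 times the highest mutant value and to 123 where 1.5 times was enough. Leaving out 1 library gave 49 to 123 genes, with 123 without Ku70 T. Leaving out a mutant library can only loosen or keep the 2-fold limit, so these totals say nothing of stability either. Without MuPOX08340 F the rule lost POX08268 and POX08890, and without MuPOX08340 S it lost POX04879. These genes met the clause on the MuPOX01907 value only with that library included. Of the 49, 44 also met the rule on TMM-scaled FPKM, which gave 45, 45 met it on FPKM + 1, which gave 47, and 43 with a Ku70 minimum of 10 FPKM. A minimum of 1 FPKM gave 66 and no clause on the MuPOX01907 value gave 55, both looser than the rule. The genes called higher in MuPOX01907 than in MuPOX08340 numbered 4 in each other fit that kept every mutant library and 4 to 6 with 1 library left out. Those called lower numbered 4 with limma on TMM-scaled FPKM, 5 to 11 with 1 library left out and 6 to 13 in the other fits. With the replicate block, which treats same-lettered libraries as pairs, 4 were higher and 8 lower; POX09233 lost its call and no other of the 13 did, while POX01317 and POX07545 gained a passing adjusted p at less than 2-fold. For S the same letter was not the closest match. Chosen after the data were seen, counts over the genes that meet the rule on TMM-scaled FPKM were 3 and 9, and without POX08340, which leaves 48 genes, also 3 and 9. The cause of these shifts was not tested. Depth limits the genes with few counts in the mutants, and the errors printed cover only the spread between libraries, which may be technical.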

Other observations

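Several IDs numbered beside one of the 49 genes came close to the rule. POX01601, beside POX01602, measured 21.7, 8.63 and 6.11 FPKM in Ku70 F, S and T, 2.04, 1.88 and 2.11 in MuPOX01907, and 2.88, 2.68 and 3.13 in MuPOX08340. POX08891, beside POX08890, measured 37.1, 11.1 and 5 FPKM in Ku70, 1.74, 1.53 and 1.67 in MuPOX01907, and 2.57, 2.36 and 2.35 in MuPOX08340. POX07621, beside POX07622, measured 47.6, 5.94 and 4.67 FPKM in Ku70, 0.54, 0.43 and 0.56 in MuPOX01907, and 0.39, 0.96 and 2.25 in MuPOX08340. In each of these, as in the gene beside it, Ku70 F was the highest control library. It was so for 67.3% of the 49 genes and 36.0% of the 7048 with at least 5 FPKM in every Ku70 library, so nothing is read from it. Not all such IDs are listed: POX01318, beside POX01317, had a lowest Ku70 value of 3.73 FPKM, 4.19 times its highest mutant value. POX04035, numbered between POX04034 and POX04036, was farther from the rule, its lowest Ku70 value being 1.60 times its highest mutant value. It measured 2468, 2149 and 1958 FPKM in Ku70, 438, 603 and 576 in MuPOX01907, and 1227, 1182 and 1063 in MuPOX08340. Every mutant library lay below every Ku70 library there too.

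The effective length implied by the ratio of expected counts to FPKM had a median of 1377 bases for the 49 genes, from 305 to 5523, and of 1283 bases for the 7048 genes with at least 5 FPKM in every Ku70 library.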
